A study of Mus musculus with 12 samples.

Results

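The cathepsins and cystatins described here are 10 genes of mouse macrophages, the proteases Ctsb, Ctsc, Ctsk, Ctsl, Ctss, Ctsz and Ctsd and the protease inhibitors Cst3, Stfa3 and Stfa1. They were chosen by gene symbol with measured values of these arrays already known, so their values are a description. No p-value is printed for a single member, and whether a member passed the threshold of the fit over all genes is given as a description too. Of the 10 genes, 9 had a probe set that names no other gene and stood among the 19945 genes tested. The probe set of Stfa1 also names Cstdc5 and Cstdc6, near-identical stefin genes of the same cluster, so its signal belongs to no single gene.

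RNA of cultured bone marrow-derived macrophages of strain C57BL/6 was hybridised to 12 Affymetrix gene arrays, 3 for each of 4 conditions. These were Hdac3 -/- cells given lipopolysaccharide (LPS, a bacterial cell wall component) at 100 ng/ml for 4 h, untreated Hdac3 -/- cells, and Hdac3 +/- cells with and without the same LPS. The Hdac3 +/- cells keep 1 allele and are called wild type in the labels. All were grown in medium conditioned by L929 cells, which supplies the growth factor CSF1, and used on day 7. The labels state neither how the Hdac3 alleles were deleted, nor the sex or age of the mice. They also do not state whether replicates came from separate animals. The spread behind each p-value may thus be technical, apart from a difference in sex among Hdac3 +/- arrays given below.

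Cathepsins are proteases of the lysosome, where they break down proteins taken up or made by the cell. Most are papain-type cysteine proteases, while Ctsd cuts with a pair of aspartates, and several also act outside the cell on matrix. Cystatins are tight-binding inhibitors of the cysteine cathepsins. Cst3 (cystatin C) is secreted, and the stefins stay in the cytosol. In macrophages these enzymes serve antigen processing, the cutting of endosomal Toll-like receptors and matrix turnover.

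The promoters of 6 of the genes are shown because they differ in the letters of motifs known from lysosomal and interferon-regulated genes, while the genes themselves differ in how their signal varied between genotypes. Each window holds 300 bases around the start site of the gene, from RefSeq on GRCm38.p6, 5′ to 3′ on the strand of the gene. The windows lie at chr7:142387778-142388077 (minus strand) for Ctsd, chr13:64370471-64370770 (minus) for Ctsl, chr3:95498960-95499259 (plus) for Ctsk, chr3:95526536-95526835 (plus) for Ctss, chr16:36455343-36455642 (minus) for Stfa3 and chr16:36276898-36277197 (plus) for Stfa1. Capitals mark matches on either strand to CACGTG (the core bound by the lysosomal regulator TFEB), GAAANNGAA (the core of the interferon-stimulated response element) or TGANNNNGC (the core of the antioxidant response element).
Ctsd: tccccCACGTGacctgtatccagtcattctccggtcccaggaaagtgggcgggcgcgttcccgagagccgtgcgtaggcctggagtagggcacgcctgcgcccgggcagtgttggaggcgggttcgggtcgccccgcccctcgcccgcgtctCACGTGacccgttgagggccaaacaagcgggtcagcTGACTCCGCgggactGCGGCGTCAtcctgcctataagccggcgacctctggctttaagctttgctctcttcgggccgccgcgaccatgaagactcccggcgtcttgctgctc
Ctsl: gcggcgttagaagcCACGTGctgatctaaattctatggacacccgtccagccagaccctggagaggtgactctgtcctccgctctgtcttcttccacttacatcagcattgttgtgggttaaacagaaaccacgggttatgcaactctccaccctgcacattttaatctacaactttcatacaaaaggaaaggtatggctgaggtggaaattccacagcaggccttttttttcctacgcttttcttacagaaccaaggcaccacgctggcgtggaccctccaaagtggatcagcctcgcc
Ctsk: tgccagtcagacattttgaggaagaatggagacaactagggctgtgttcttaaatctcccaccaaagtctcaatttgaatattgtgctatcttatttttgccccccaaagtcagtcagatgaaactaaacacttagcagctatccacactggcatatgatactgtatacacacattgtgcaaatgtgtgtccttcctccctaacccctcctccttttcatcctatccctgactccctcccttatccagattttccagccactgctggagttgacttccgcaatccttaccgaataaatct
Ctss: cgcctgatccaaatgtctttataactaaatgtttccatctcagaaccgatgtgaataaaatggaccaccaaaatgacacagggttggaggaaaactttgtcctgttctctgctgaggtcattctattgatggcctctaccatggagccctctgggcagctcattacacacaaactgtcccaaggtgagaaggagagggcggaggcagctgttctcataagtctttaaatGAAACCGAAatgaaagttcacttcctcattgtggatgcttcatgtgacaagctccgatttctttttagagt
Stfa3: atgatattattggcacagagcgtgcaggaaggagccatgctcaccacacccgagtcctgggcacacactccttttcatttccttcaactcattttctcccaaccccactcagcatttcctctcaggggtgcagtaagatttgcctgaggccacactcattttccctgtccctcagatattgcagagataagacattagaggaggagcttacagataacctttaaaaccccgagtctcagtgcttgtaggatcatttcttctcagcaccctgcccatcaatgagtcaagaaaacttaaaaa
Stfa1: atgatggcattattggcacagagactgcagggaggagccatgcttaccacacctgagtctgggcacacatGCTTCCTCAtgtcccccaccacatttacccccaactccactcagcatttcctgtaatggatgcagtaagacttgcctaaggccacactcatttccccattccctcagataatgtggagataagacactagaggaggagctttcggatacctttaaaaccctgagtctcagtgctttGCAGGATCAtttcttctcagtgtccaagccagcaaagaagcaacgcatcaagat
The Ctsd window held CACGTG at 2 places and TGANNNNGC at 2. The Ctsl window held CACGTG once, and the Ctss window held GAAANNGAA once. The windows of Ctsk and Stfa3 held none of the 3 motifs, and that of Stfa1 held TGANNNNGC at 2 places. Among 27025 genes whose windows were searched, 8.1% held CACGTG in any of their windows, 9.8% GAAANNGAA and 45.0% TGANNNNGC. Of their 32851 windows, 7.2%, 8.6% and 41.3% held them. A chromosome that holds none of the 10 genes was left out of these counts. Of the other members, Cst3 held no match, Ctsc held TGANNNNGC once and Ctsz at 2 places. Promoter windows were matched for 9 of the 10 genes, Ctsb being the exception. The Stfa3 and Stfa1 windows matched at 245 of 304 aligned positions (80.6%). Stfa3 lies between Stfa2 and Casr on chromosome 16, and Ctsk and Ctss are neighbours on chromosome 3.

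Array medians were 5.19 to 5.37 on the log2 scale, and precision is limited by having 3 arrays a group. The range between quartiles was 3.19 to 3.485 in LPS-treated Hdac3 +/- arrays and 3.39 to 3.70 in LPS-treated Hdac3 -/- arrays. With quantile normalization the differences after LPS were 2.70 for Ctsk, 0.92 for Ctsl, 0.55 for Ctsd and 3.90 for Stfa3, each called. The part of this unlike range in other genotype differences, of bright or dim genes, was not tested. The Hdac3 probe set was lower in Hdac3 -/- than in Hdac3 +/- cells (log2 difference -1.75 after LPS and -1.74 untreated) with no overlap of arrays, though where its probes lie relative to the deletion is not stated in the labels. Both replicate 1 arrays of the Hdac3 +/- groups had signal of the Y-linked gene Eif2s3y (7.93 after LPS, 7.76 untreated), against 2.20 to 2.47 on the other 10 arrays. The female-specific transcript Xist was 3.20 and 3.93 on those replicate 1 arrays and 9.67 to 10.97 on the others. By these signals Hdac3 +/- replicate 1 was male and all other arrays female. The Hdac3 +/- replicates thus did not all come from the same animal, and sex was not balanced between genotypes. Both replicate 2 arrays of the Hdac3 -/- groups were the lowest of their group in Ctsk and Stfa3. For untreated Stfa3, though, replicate 3 lay close to replicate 2 (4.57 against 4.36). The calls of members that change when either pair is left out are given below. The macrophage markers were bright on every array, with a list mean of 10.5 to 10.7 in LPS-treated and 11.2 to 11.3 in untreated Hdac3 -/- arrays, and of 10.9 to 11.2 in LPS-treated and 11.3 to 11.6 in untreated Hdac3 +/- arrays. The brightest of them, the lysosomal membrane protein gene Cd68, differed between genotypes by 0.005 ± 0.111 after LPS and -0.02 ± 0.111 untreated. Of these markers the Fc receptor gene Fcgr1 fell in Hdac3 -/- cells (-2.41 after LPS, adjusted p = 2.43e-06, and -1.45 untreated, adjusted p = 0.000603).

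Between genotypes, 4 of the 9 members tested passed the threshold after LPS, all higher in Hdac3 -/- cells: Ctsk, Ctsl, Ctsd and Stfa3. Without LPS 1 of 9 passed, Ctsk, also higher in Hdac3 -/- cells. A gene was counted as called at an adjusted p under 0.05 in limma (Benjamini-Hochberg over 19945 genes). Over all genes 15.7% were called after LPS, 9.69% of all as higher in Hdac3 -/- cells, and 2.66% were called untreated. Since the members were picked with such values known, nothing is read from these shares. The median difference of the 9 members was 0.30 after LPS and 0.27 untreated, beside -0.04 and 0.01 over all genes. The groups did not overlap for 7 of the 9 members after LPS and for 4 untreated, where 31.8% and 18.0% of all genes had no overlap. The RNA comes from whole cultures, so fewer cells of a type and less RNA per cell cannot be told apart.

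**Figure D1:**
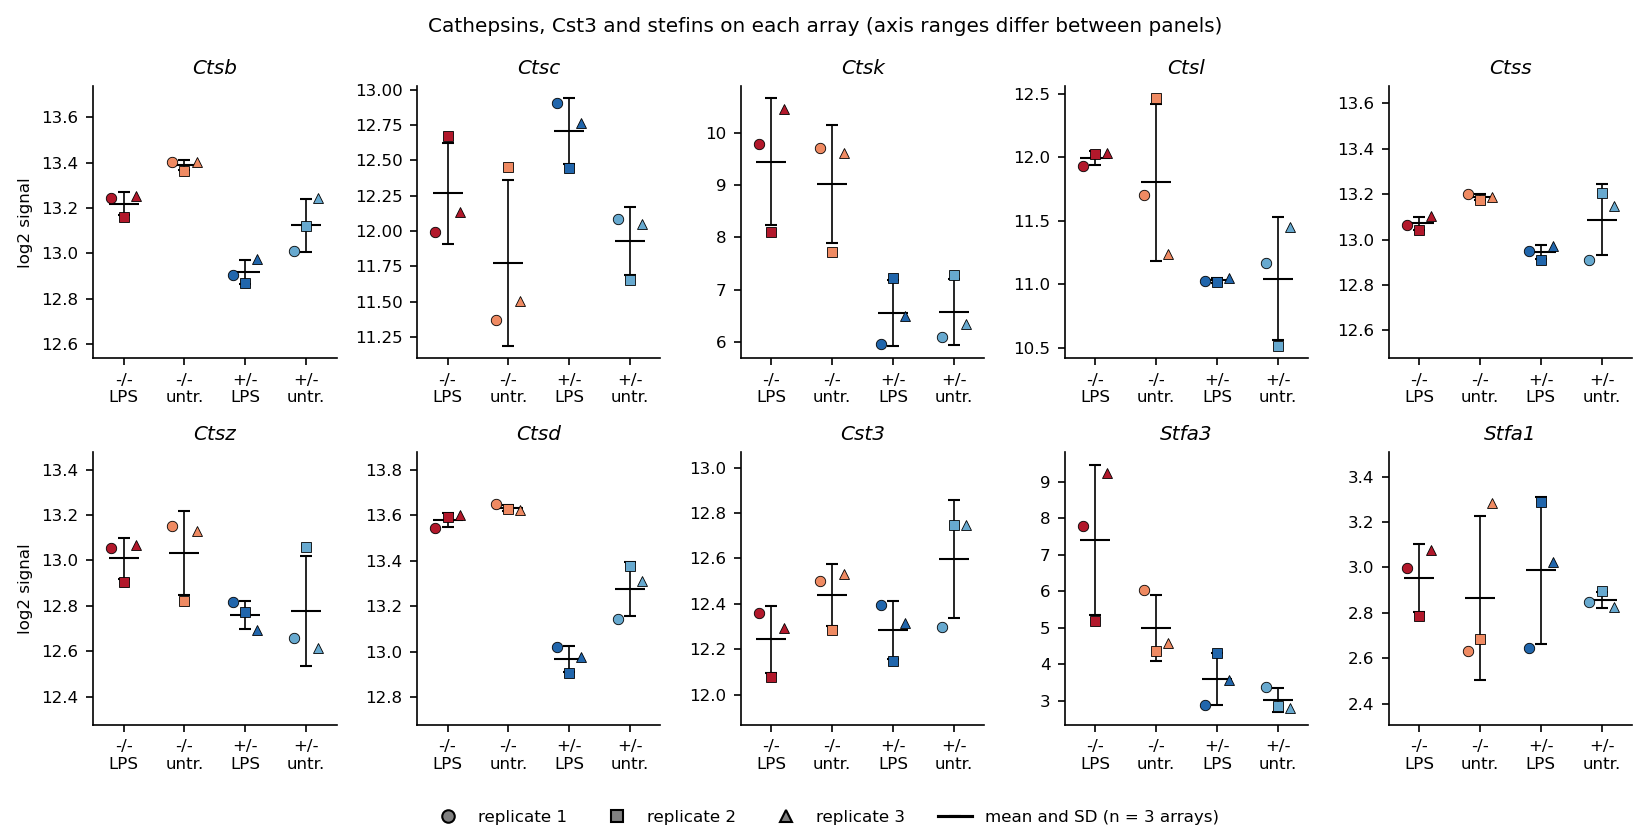
Log2 signal (y axis) of the 10 genes on each array in the 4 groups (x axis), with replicate numbers as marker shapes and bars for the mean and SD of 3 arrays. Ctsk and Stfa3 spread over several log2 units, with the replicate 2 squares lowest in both Hdac3 -/- groups, while Ctsb, Ctsd, Ctss and Ctsz stay within 1 unit on all arrays.

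Ctsk, the collagen-cutting cathepsin best known from osteoclasts, varied most among the cathepsins. Its log2 signal was 9.80, 8.11 and 10.45 in LPS-treated Hdac3 -/- arrays and 5.96, 7.22 and 6.50 in LPS-treated Hdac3 +/- arrays. Without LPS it was 9.72, 7.72 and 9.62 in Hdac3 -/- arrays and 6.10, 7.28 and 6.34 in Hdac3 +/- arrays. Every Hdac3 -/- array lay above every Hdac3 +/- array, and replicate 2 was the lowest Hdac3 -/- array and the highest Hdac3 +/- array, with and without LPS. Ctsk rose in Hdac3 -/- cells by 2.89 ± 0.599 (SE, n = 3 arrays per group here and below) after LPS, or 7.44-fold, and by 2.44 ± 0.599 untreated, or 5.43-fold. Without both Hdac3 -/- replicate 2 arrays the differences were 3.57 (11.9-fold) after LPS and 3.09 (8.53-fold) untreated, and without both Hdac3 +/- replicate 1 arrays they were 2.59 and 2.21. After LPS the call held in 22 of 22 alternative settings, with differences of 2.39 to 3.57. The untreated call held in 10 of 22, with differences of 2.09 to 3.09. It was lost when any 1 of 7 arrays was left out: replicates 1 and 3 of untreated Hdac3 -/- cells (2.09 and 2.14), replicates 1 and 3 of untreated Hdac3 +/- cells (2.21 and 2.33), replicate 1 of LPS-treated Hdac3 -/- cells, or replicate 1 or 3 of LPS-treated Hdac3 +/- cells (2.44 each, with a changed estimate of the spread). It was also lost without both Hdac3 +/- replicate 1 arrays (2.21), with cyclic loess (2.398), and with eBayes with trend and robust, only the arrays compared or the replicate number as a block (2.44 each). LPS itself gave a difference of 0.43 ± 0.599 in Hdac3 -/- and -0.02 ± 0.599 in Hdac3 +/- cells, neither called.

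Ctsl, an endosomal protease that also cuts Toll-like receptors, was higher in Hdac3 -/- cells to a smaller extent. After LPS its signal was 11.93, 12.02 and 12.03 in Hdac3 -/- arrays and 11.02, 11.02 and 11.05 in Hdac3 +/- arrays. The groups lay apart by 0.88, and each spread over no more than 0.1 units. Ctsl rose in Hdac3 -/- cells by 0.96 ± 0.268 after LPS (1.95-fold). Untreated arrays gave 11.70, 12.46 and 11.24 in Hdac3 -/- cells against 11.17, 10.51 and 11.45 in Hdac3 +/- cells. These groups overlapped, with the Hdac3 -/- replicate 3 array below the Hdac3 +/- replicate 3 array, and the difference of 0.76 ± 0.268 was not called. It was 0.43 without the untreated Hdac3 -/- replicate 2 array and 0.49 without the untreated Hdac3 +/- replicate 2 array. The call after LPS held in 15 of 22 alternatives. It was lost when any 1 of the 6 LPS-treated arrays was left out, though the differences stayed between 0.95 and 1.00, and without both Hdac3 +/- replicate 1 arrays (0.96).

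Ctsd, the main aspartic protease of the lysosome, had close replicates. Its signal was 13.55, 13.59 and 13.60 in LPS-treated Hdac3 -/- arrays and 13.02, 12.91 and 12.98 in LPS-treated Hdac3 +/- arrays. Without LPS it was 13.65, 13.63 and 13.62 in Hdac3 -/- arrays and 13.14, 13.38 and 13.31 in Hdac3 +/- arrays. The genotypes did not overlap under either condition. Ctsd rose in Hdac3 -/- cells after LPS by 0.61 ± 0.113 (1.53-fold), a call that held in 22 of 22 alternatives, and the untreated difference of 0.36 ± 0.113 was called with array weights alone (0.40). For LPS in Hdac3 +/- cells Ctsd gave -0.31 ± 0.113, not called, though it was called in 4 of 22 alternatives (-0.38 to -0.31). The highest signal of any probe set on an array was 13.64 to 14.05, so the Ctsd signals in Hdac3 -/- cells lay close to the top of the scale.

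Stfa3, a stefin of the cytosol, had the widest range of the 10 genes. After LPS its signal was 7.80, 5.18 and 9.25 in Hdac3 -/- arrays and 2.89, 4.32 and 3.57 in Hdac3 +/- arrays. Untreated arrays gave 6.04, 4.36 and 4.57 in Hdac3 -/- cells and 3.38, 2.85 and 2.79 in Hdac3 +/- cells. All Hdac3 -/- arrays lay above the Hdac3 +/- arrays of the same treatment, and the replicate 2 array was the lowest of each Hdac3 -/- group. In Hdac3 +/- cells the signal lay below the lower quartile of the array (3.70 to 3.99) on 2 of 3 LPS-treated and 3 of 3 untreated arrays, so the fold changes are taken against dim signals. Stfa3 rose in Hdac3 -/- cells after LPS by 3.82 ± 0.757 (14.1-fold), a call that held in 22 of 22 alternatives. Without the LPS-treated Hdac3 -/- replicate 2 array the difference was 4.93 (30.6-fold), without replicate 3 of that group it was 2.90 (7.46-fold), and without both Hdac3 +/- replicate 1 arrays 3.47 (11.1-fold). The untreated difference of 1.98 ± 0.757 was not called. It was called in 2 of 22 alternatives, without the LPS-treated Hdac3 -/- replicate 2 array (1.98 ± 0.473) and without both Hdac3 -/- replicate 2 arrays (2.30 ± 0.500). LPS gave 2.42 ± 0.757 in Hdac3 -/- cells, where the groups overlapped, and 0.58 ± 0.757 in Hdac3 +/- cells, neither called. In Hdac3 -/- cells the LPS difference was called in 4 of 22 alternatives: array weights (2.15), the replicate number as a block (2.42), without the LPS-treated Hdac3 -/- replicate 2 array (3.54) and without both Hdac3 -/- replicate 2 arrays (3.22). Without the LPS-treated replicate 3 array it was 1.502 and not called. The difference between these LPS responses was 1.84 ± 1.07, not called in any of 21 alternatives, and 0.92 without the LPS-treated Hdac3 -/- replicate 3 array and 2.95 without replicate 2 of that group.

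The stefin probe set shared by Stfa1, Cstdc5 and Cstdc6 stayed dim. Its signal was 3.00, 2.79 and 3.08 in LPS-treated and 2.63, 2.68 and 3.28 in untreated Hdac3 -/- arrays. In Hdac3 +/- arrays it was 2.65, 3.29 and 3.02 after LPS and 2.85, 2.90 and 2.82 untreated. All 12 values lay below the lower quartile of their array and the groups overlapped. The genotypes differed by -0.03 ± 0.193 after LPS and 0.01 ± 0.193 untreated, which at this signal says little about the genes.

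Ctsc, which activates granule proteases by trimming dipeptides, was the member that rose with LPS in Hdac3 +/- cells. Its signal there was 12.90, 12.45 and 12.76 after LPS and 12.09, 11.66 and 12.05 untreated, with no overlap. Hdac3 -/- arrays gave 11.997, 12.67 and 12.14 after LPS and 11.37, 12.45 and 11.50 untreated, where replicate 2 was the highest in both groups and the groups overlapped. Ctsc rose with LPS by 0.77 ± 0.262 (1.71-fold) in Hdac3 +/- cells, and the difference of 0.49 ± 0.262 in Hdac3 -/- cells was not called. It was called in 2 of 22 alternatives, with the replicate number as a block (0.49 ± 0.142) and without the untreated Hdac3 -/- replicate 2 array (0.83), and it was 0.29 without the untreated replicate 1 or the LPS-treated replicate 2 array of that genotype. The interaction, the LPS response of Hdac3 -/- cells minus that of Hdac3 +/- cells, was -0.28 ± 0.370 and not called. The call in Hdac3 +/- cells held in 10 of 22 alternatives, over differences of 0.62 to 0.90. It was lost with quantile normalization (0.62), cyclic loess (0.78), eBayes with trend and robust (0.77) and array weights (0.74). It was also lost without replicate 1, 2 or 3 of the untreated Hdac3 +/- arrays (0.85, 0.64 and 0.83), replicate 1 or 3 of the LPS-treated Hdac3 +/- arrays (0.67 and 0.74), replicate 1 or 3 of the LPS-treated Hdac3 -/- arrays, or both Hdac3 +/- replicate 1 arrays (0.75). Between genotypes Ctsc differed by -0.44 ± 0.262 after LPS and -0.16 ± 0.262 untreated, neither called. Without both Hdac3 -/- replicate 2 arrays the difference after LPS was -0.64 ± 0.185 and was called.

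The other 4 members were bright and varied little. Ctsb, an abundant cysteine cathepsin, gave 13.24, 13.16 and 13.25 in LPS-treated Hdac3 -/- arrays against 12.90, 12.87 and 12.97 in LPS-treated Hdac3 +/- arrays. It gave 13.40, 13.36 and 13.40 in untreated Hdac3 -/- arrays against 13.01, 13.12 and 13.24 in untreated Hdac3 +/- arrays. Neither pair of groups overlapped, but the differences of 0.30 ± 0.113 and 0.27 ± 0.113 were not called, the first with the exception of eBayes with trend and robust. For LPS in Hdac3 +/- cells Ctsb was called with quantile normalization (-0.33), and in no other alternative (-0.21 in the fit reported). Ctss, the cathepsin that removes the last of the invariant chain from MHC class II, differed by 0.13 ± 0.117 after LPS and 0.10 ± 0.117 untreated. Ctsz, a carboxypeptidase, differed by 0.25 ± 0.146 and 0.26 ± 0.146. Cst3, the secreted inhibitor, differed least of the bright members between genotypes after LPS, with group means of 12.24 ± 0.147 in Hdac3 -/- and 12.28 ± 0.126 in Hdac3 +/- cells (SD, n = 3), a difference of -0.04 ± 0.152. Untreated means were 12.44 ± 0.135 in Hdac3 -/- and 12.60 ± 0.260 in Hdac3 +/- cells. LPS gave Cst3 differences of -0.19 ± 0.152 in Hdac3 -/- and -0.31 ± 0.152 in Hdac3 +/- cells, not called. In Hdac3 +/- cells it was called without the untreated replicate 1 array (-0.46) and without both replicate 1 arrays (-0.52).

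**Figure D2:**
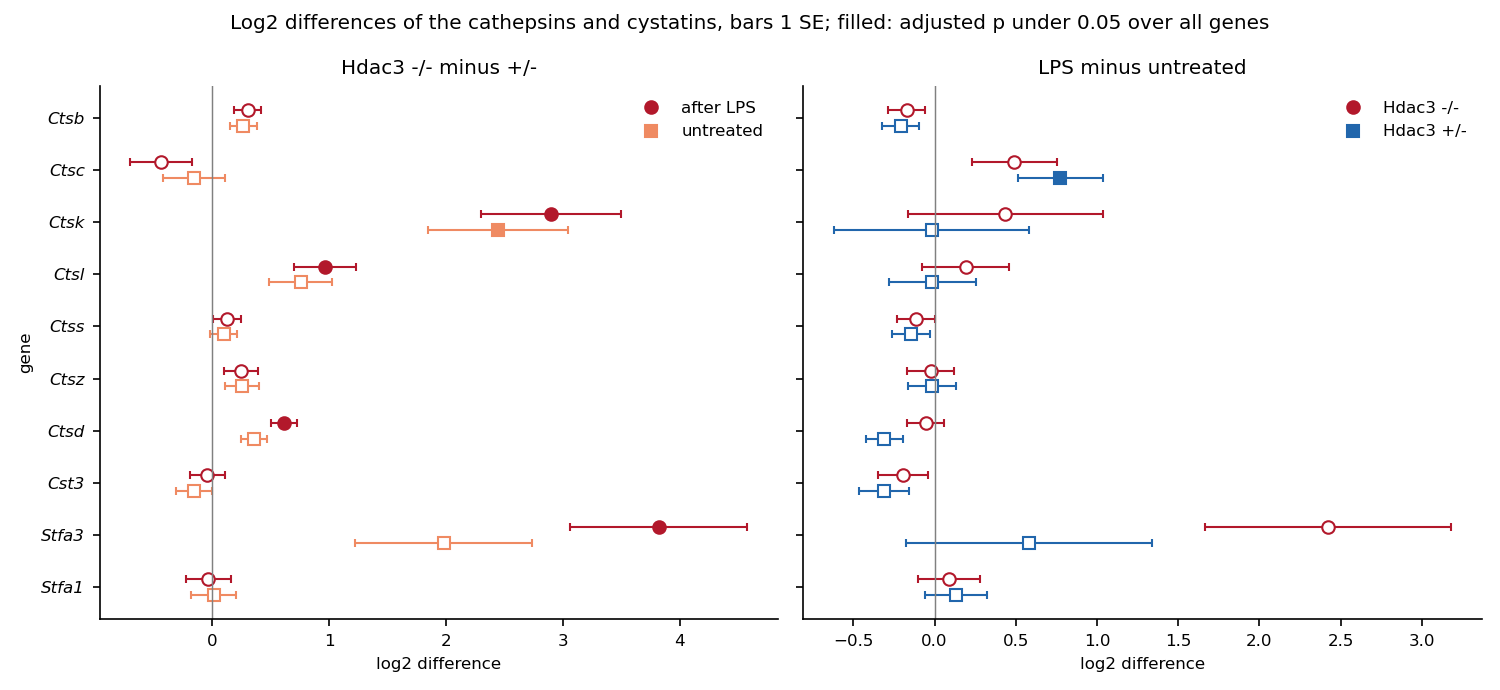
Log2 differences (x axis, bars 1 SE) of the 10 genes, Hdac3 -/- minus +/- on the left and LPS minus untreated on the right, with filled symbols for an adjusted p under 0.05 over all genes. On the left Ctsk, Stfa3, Ctsl and Ctsd are filled after LPS and Ctsk untreated, and on the right Ctsc is filled in Hdac3 +/- cells.

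The LPS comparisons within each genotype are given as counts, and nothing is read from their shares. In Hdac3 -/- cells limma called 0 of 9 with an adjusted p under 0.05, and 1 of 9 had an unadjusted p under 0.05, while 8.87% of all genes were called. In Hdac3 +/- cells it called 1 of 9, Ctsc, beside 25.1% of all genes. For the interaction it called 0 of 9, with 0 at an unadjusted p under 0.05, beside 1.08% of all genes. LPS-treated and untreated arrays did not overlap for 3 of the 9 members in Hdac3 -/- cells and for 3 in Hdac3 +/- cells, where 28.3% and 36.7% of all genes did not. The median LPS difference of the 9 members was -0.02 in both genotypes, beside 0.02 in Hdac3 -/- and 0.08 in Hdac3 +/- cells over all genes.

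Only Ctsk and Stfa3 had group means that spanned at least 1 log2 unit, and the genes most like them over the 12 arrays were sought by Pearson correlation, given without a p. For Ctsk (span 2.89) these were Ly75, an endocytic receptor (r = 0.971), Mcemp1, a membrane protein of myeloid cells (r = 0.967), and Hsd11b1, which makes active glucocorticoid (r = 0.958). Ly75 gave 6.96, 6.37 and 7.36 in LPS-treated and 6.64, 5.79 and 6.66 in untreated Hdac3 -/- arrays. It gave 5.06, 5.61 and 5.28 in LPS-treated and 4.71, 5.69 and 4.67 in untreated Hdac3 +/- arrays, so that replicate 2 was the lowest Hdac3 -/- and the highest Hdac3 +/- array, as for Ctsk. For Stfa3 (span 4.40) they were Prkaa2, a catalytic subunit of the energy-sensing kinase AMPK (r = 0.963), Serpinb1b, a serpin (r = 0.954), and Adh7, an alcohol dehydrogenase (r = 0.948). Adh7 gave 6.56, 5.39 and 7.50 in LPS-treated Hdac3 -/- arrays against 4.37, 4.42 and 4.42 in LPS-treated Hdac3 +/- arrays. These correlations include shared difference between the 4 groups. With Ctsk, the correlations of the deviations from the group means were 0.941 for Ly75, 0.867 for Mcemp1 and 0.891 for Hsd11b1. With Stfa3 they were 0.8775 for Prkaa2, 0.889 for Serpinb1b and 0.914 for Adh7. The genes were picked by their correlation on these same arrays, so these values are no separate evidence.

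Markers of neutrophils and osteoclasts were followed beside Ctsk and Stfa3, since stefin and Ctsk transcripts are known from those cells. The mean over the 7 neutrophil markers was 5.23 to 6.00 in LPS-treated and 4.73 to 5.56 in untreated Hdac3 -/- arrays, and 5.08 to 5.72 in LPS-treated and 4.76 to 5.00 in untreated Hdac3 +/- arrays. S100a9, Ly6g, Retnlg and Cxcr2 lay under the array median on all 12 arrays. After LPS 2 of the 7 were higher and 5 lower in Hdac3 -/- cells, with a median difference of -0.11 beside -0.04 over all genes. Of this list Csf3r, the brightest member, fell in Hdac3 -/- cells after LPS (-1.03, adjusted p = 0.0314), a call lost when replicate 2 or 3 of the LPS-treated Hdac3 -/- arrays (-0.98 and -0.86) or replicate 2 or 3 of the LPS-treated Hdac3 +/- arrays (-1.10 and -0.88) was left out. The calcium-binding granule protein gene S100a8 gave 8.99, 8.51 and 10.19 in LPS-treated Hdac3 -/- arrays against 5.96, 9.45 and 6.40 in LPS-treated Hdac3 +/- arrays. Untreated arrays gave 8.15, 5.68 and 7.36 in Hdac3 -/- cells and 4.65, 5.37 and 5.07 in Hdac3 +/- cells. The groups overlapped after LPS and not without it, and S100a8 was not called (1.96 ± 0.782 after LPS, adjusted p = 0.111, and 2.04 ± 0.782 untreated, adjusted p = 0.261). Without the LPS-treated Hdac3 +/- replicate 2 array its difference after LPS was 3.05 and called (adjusted p = 0.00499), and without replicate 1 of that group it was 1.31. The granule collagenase Mmp8 gave 8.34, 5.54 and 9.34 in LPS-treated and 8.26, 5.74 and 7.88 in untreated Hdac3 -/- arrays, against 5.38 to 5.97 in LPS-treated and 5.59 to 6.27 in untreated Hdac3 +/- arrays. Its replicate 2 arrays were the low ones of Hdac3 -/- cells, as for Ctsk. Mmp8 was not called (2.10 ± 0.774 after LPS, adjusted p = 0.0855, and 1.29 ± 0.774 untreated, adjusted p = 0.573). Without both Hdac3 -/- replicate 2 arrays Mmp8 differed by 3.20 after LPS and by 2.07 untreated, and was called. It was also called after LPS without the LPS-treated (3.20) or the untreated (2.10) replicate 2 array of that genotype, and was 1.30 without LPS-treated replicate 3. The replicate 2 pair was left out after it was seen to be low, which by itself widens the difference. The calls without it are therefore no added evidence. The mean over the 7 osteoclast markers was 5.05 to 5.76 in LPS-treated and 4.91 to 5.31 in untreated Hdac3 -/- arrays, and 5.36 to 5.54 in LPS-treated and 5.00 to 5.54 in untreated Hdac3 +/- arrays. Calcr and Oscar lay under the array median on all arrays. After LPS 2 of these 7 were higher and 5 lower in Hdac3 -/- cells, with a median difference of -0.17. The brightest, the acid phosphatase gene Acp5, gave 8.22, 8.06 and 8.11 in LPS-treated Hdac3 -/- arrays against 8.40, 8.68 and 8.19 in LPS-treated Hdac3 +/- arrays, a difference of -0.29 ± 0.283 (adjusted p = 0.545). Untreated it gave 6.80, 6.92 and 7.04 in Hdac3 -/- against 8.18, 8.17 and 6.81 in Hdac3 +/- arrays (-0.80 ± 0.283, adjusted p = 0.206). Without the untreated Hdac3 +/- replicate 3 array the untreated Acp5 difference was -1.26 and called (adjusted p = 0.000961). The gelatinase Mmp9, which neutrophils carry as well, was the 1 marker of this list called between genotypes. Mmp9 rose in Hdac3 -/- cells after LPS by 2.53 ± 0.666 (adjusted p = 0.0198), with 8.57, 5.36 and 9.05 in Hdac3 -/- against 5.25, 4.80 and 5.33 in Hdac3 +/- arrays. Its difference was 3.68 without both Hdac3 -/- replicate 2 arrays, a pair left out after it was seen to be low. The call was lost without LPS-treated Hdac3 -/- replicate 1 (2.08) or 3 (1.84, adjusted p = 0.108) and without LPS-treated Hdac3 +/- replicate 2 (2.37) or 3 (2.63). The part of such cells in the Ctsk and Stfa3 signals was not tested.

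The brightest members of the other marker lists were Lcn2 (neutrophil precursor granules), Zbtb46 (dendritic cells), Gata2 (mast cells and basophils), Ccr3 (eosinophils), Cd79b (B cells), Cd3e (T and NK cells), Col1a1 (fibroblasts) and Epor (erythroid cells). Between genotypes after LPS, Xcr1 (-0.70), Ccr3 (-2.17) and Dcn (-0.71) fell in Hdac3 -/- cells, and without LPS Ngp (-1.18) and Cd79b (-0.60) fell. With LPS in Hdac3 -/- cells Lcn2 (4.11) and Acp5 (1.21) rose and Mertk (-2.61) fell. With LPS in Hdac3 +/- cells Lcn2 (4.19), Ccr3 (1.97), Fcgr1 (1.13), Csf3r (1.08), Cd79a (0.75), Dcn (0.72), Pdgfrb (0.69), Cd3e (0.53), Cd209a (0.45), Prg3 (0.45), Il5ra (0.42) and Siglech (0.40) rose, and Mertk (-2.01), Csf1r (-0.60) and Itgam (-0.37) fell. Of these genes Xcr1, Cd79a, Dcn, Cd209a, Il5ra and Siglech lay under the array median on all 12 arrays, so their changes are between dim signals. The lower quartile of the array was 3.84 to 3.99 in LPS-treated and 3.70 to 3.84 in untreated Hdac3 +/- arrays. In LPS-treated Hdac3 -/- arrays it was 3.74 to 3.89. Whether these shifts moved the dim genes, with LPS or between genotypes, was not tested. The part of these cell types in the member signals was not tested.

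**Figure D3:**
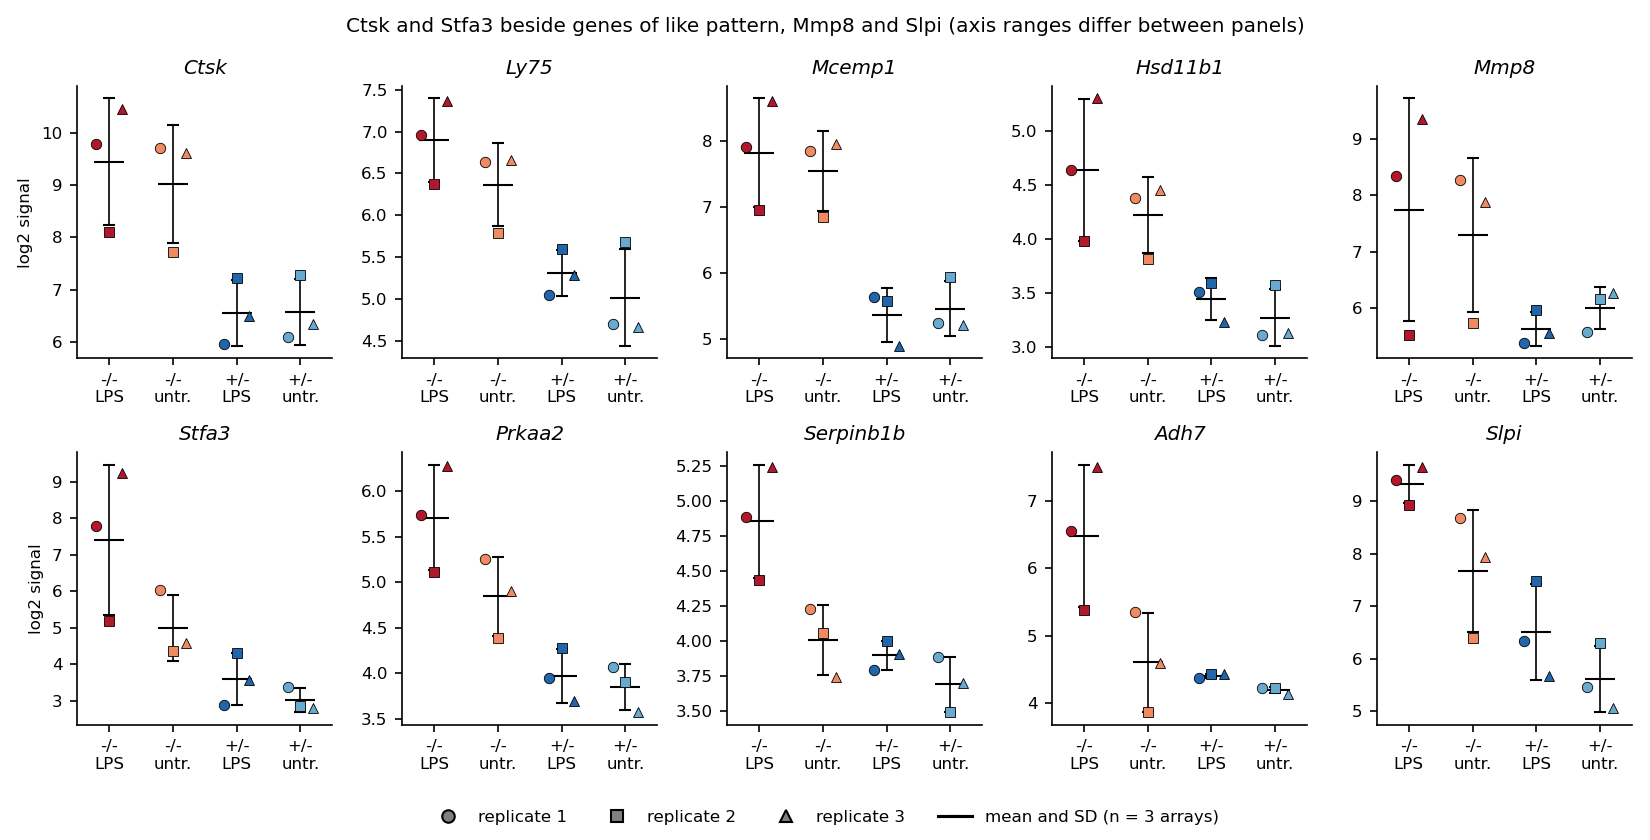
Log2 signal (y axis) of Ctsk and Stfa3, of the 3 genes most like each, and of Mmp8 and Slpi on each array in the 4 groups (x axis), with replicate numbers as marker shapes and bars for the mean and SD of 3 arrays. In LPS-treated Hdac3 -/- cells the replicate 2 square is the lowest array in all 10 panels.

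Of 76 further genes of the family and its pathway 64 were measured. Their 9 lists were written from general knowledge, but with earlier results of these data known, so their counts are a description. After LPS 13 of the 64 (20.3%, beside 15.7% of all genes) passed the threshold between genotypes, 8 higher and 5 lower in Hdac3 -/- cells, and the median over the 64 was -0.13 beside -0.04 over all genes. Without replicate 3 of the LPS-treated Hdac3 -/- arrays, or without that of the LPS-treated Hdac3 +/- arrays, 7 of the 64 were called. Without LPS limma called 0 of the 64, beside 2.66% of all genes, with 13 at an unadjusted p under 0.05.

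Among the other cysteine cathepsins 1 of 5 rose after LPS. This was Ctsh, an aminopeptidase, at 9.69, 9.79 and 9.83 in Hdac3 -/- against 9.02, 8.56 and 9.09 in Hdac3 +/- arrays (0.88 ± 0.186, adjusted p = 0.00604). Of the 6 measured placental cathepsins 0 passed in any comparison in limma, and the smallest p-values belonged to Cts6 (0.39 ± 0.141, adjusted p = 0.0567) and Ctsj (0.36 ± 0.139, adjusted p = 0.0734) for LPS in Hdac3 +/- cells. All 6 were dim, at 2.06 to 3.79 and below the lower quartile of every array, where such differences say little. Among the 6 other stefins measured, 1 rose after LPS, Cstb (stefin B, a widely expressed cytosolic inhibitor), at 9.87, 9.77 and 10.18 in Hdac3 -/- and 9.05, 9.30 and 9.20 in Hdac3 +/- arrays. Its difference was 0.76 ± 0.170 (adjusted p = 0.00825), and without the LPS-treated Hdac3 -/- replicate 3 array 0.64 (adjusted p = 0.0507). The rest of that list, Stfa2, Cstdc6, Csta1, Csta2 and Csta3, was dim at 1.65 to 3.62. Of 10 other type 2 cystatins Cst9 fell by 0.58 ± 0.132 (adjusted p = 0.00875), at dim means of 2.60 ± 0.021 in Hdac3 -/- and 3.18 ± 0.226 in Hdac3 +/- cells (SD, n = 3). Among 6 further protease inhibitors 1 rose, Slpi, a secreted inhibitor of neutrophil serine proteases. Slpi gave 9.40, 8.94 and 9.66 in Hdac3 -/- arrays against 6.34, 7.48 and 5.67 in Hdac3 +/- arrays after LPS, a difference of 2.83 ± 0.529 (adjusted p = 0.00264).

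The genes of cathepsin maturation and sorting had 6 of 17 called after LPS (35.3%, beside 15.7% of all genes), 5 higher and 1 lower in Hdac3 -/- cells. The list was written with earlier results of these data known, so nothing is read from this share. Tfeb, the transcription factor that drives lysosomal genes, was at 7.06, 6.89 and 7.08 in Hdac3 -/- and 5.93, 5.53 and 6.14 in Hdac3 +/- arrays, a rise of 1.14 ± 0.167 (adjusted p = 0.00045). The sorting receptor Sort1 rose by 1.04 ± 0.206 (adjusted p = 0.00402), with 7.86, 7.54 and 7.81 in Hdac3 -/- against 6.75, 6.75 and 6.60 in Hdac3 +/- arrays. Nagpa, which uncovers the mannose 6-phosphate tag of lysosomal enzymes, rose by 0.65, and the retromer subunit Vps29 and the saposin precursor Psap rose by 0.52 and 0.46. Psap lay at 13.50 to 13.61 in LPS-treated Hdac3 -/- arrays, close to the top of the scale. The sorting receptor Sorl1 fell by 0.94 ± 0.281 (adjusted p = 0.0369). The calls of Tfeb and Sort1 held in 22 of 22 alternatives, while those of Sorl1, Nagpa, Vps29 and Psap were lost in 4 to 7 of 22. The LPS-treated arrays whose loss ended a call were Hdac3 -/- replicates 1, 2 and 3 and Hdac3 +/- replicates 2 and 3 for Sorl1, Hdac3 -/- 1 and 3 and Hdac3 +/- 2 and 3 for Nagpa, Hdac3 -/- 3 and Hdac3 +/- 2 and 3 for Vps29, and Hdac3 -/- 1 and 3 and Hdac3 +/- 1 and 3 for Psap. For Sorl1 the loss of the untreated Hdac3 -/- replicate 1 array did so too. Over these alternatives the difference ran from -1.16 to -0.87 for Sorl1, from 0.47 to 0.78 for Nagpa, from 0.36 to 0.60 for Vps29 and from 0.41 to 0.53 for Psap.

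Of the 6 genes listed for immune proteins linked to cathepsin processing, 3 had lower RNA signal in Hdac3 -/- cells after LPS. This was 50.0%, beside 15.7% of all genes called, and nothing is read from this share of a list written with earlier results known. Tlr3, the endosomal receptor for double-stranded RNA, gave 6.33, 6.08 and 6.20 in Hdac3 -/- against 9.07, 8.66 and 8.72 in Hdac3 +/- arrays (-2.61 ± 0.141, adjusted p = 1.76e-07). Cd74, the invariant chain of MHC class II, gave 5.07, 5.12 and 5.23 in Hdac3 -/- against 6.33, 8.19 and 7.76 in Hdac3 +/- arrays (-2.29 ± 0.534, adjusted p = 0.0105). Without the LPS-treated Hdac3 +/- replicate 3 array the Cd74 difference was -2.12 (adjusted p = 0.0512). Tlr9, the endosomal receptor for CpG DNA, fell by 1.12 ± 0.334 (adjusted p = 0.0354). Its call was lost in 9 of 22 alternatives, among them the loss of any 1 of the 6 LPS-treated arrays or of untreated Hdac3 -/- replicate 1, and the differences ran from -1.31 to -1.002.

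**Figure D4:**
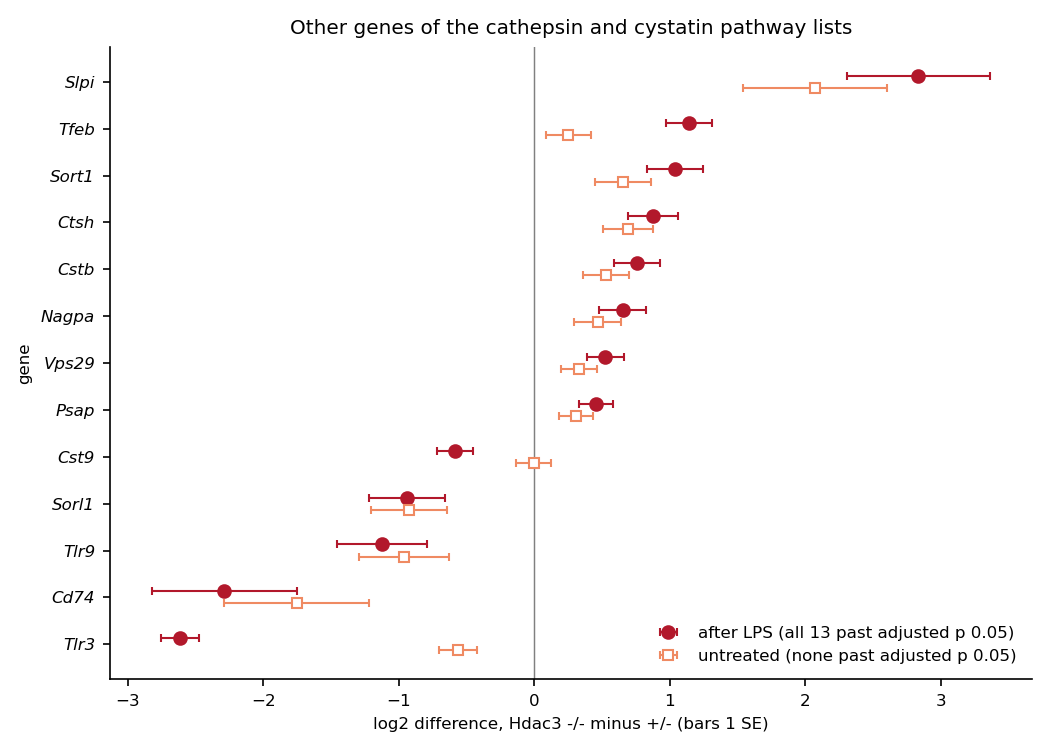
Log2 differences (x axis, Hdac3 -/- minus +/-, bars 1 SE) of the 13 genes of the pathway lists called after LPS (y axis), with their untreated differences as open squares. Slpi, Tfeb, Sort1, Ctsh, Cstb, Nagpa, Vps29 and Psap lie above 0 after LPS and Cst9, Sorl1, Tlr9, Cd74 and Tlr3 below it.

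LPS itself changed 5 of the 64 pathway genes in Hdac3 -/- cells (7.8%, beside 8.87% of all genes), 1 up and 4 down, and 14 in Hdac3 +/- cells (21.9%, beside 25.1% of all genes), 5 up and 9 down. These shares lie near those of all genes. With the replicate number as a block 10 were called in Hdac3 -/- and 18 in Hdac3 +/- cells. In Hdac3 -/- cells Mitf, a relative of Tfeb, rose by 0.80 (adjusted p = 0.0133), and the asparaginyl protease Lgmn (-0.59), the lysosomal membrane protein Scarb2 (-0.71), Tlr9 (-1.48) and the thiol reductase Ifi30 (-0.50) fell. In Hdac3 +/- cells Cst7, a cystatin that acts inside immune cells, rose by 1.86 ± 0.422 (adjusted p = 0.00534), with 6.15, 7.33 and 7.48 after LPS against 4.64, 5.97 and 4.77 untreated. Tlr3 rose by 2.51 ± 0.141 (adjusted p = 5.13e-08), Mitf by 0.72, and the dim Cst9 and Ahsg by 0.47 and 0.43. In Hdac3 +/- cells Tfeb fell by 1.38 ± 0.167 (adjusted p = 4.88e-05), and so did Sort1 (-0.99), the retromer subunit Vps35 (-0.78) and Nagpa (-0.59). Tlr9 (-1.31), the serpin Serpinb6a (-0.59), Ctsh (-0.54), Ifi30 (-0.49) and the serine carboxypeptidase Ctsa (-0.47) also fell. In Hdac3 -/- cells none of the 5 calls held in all 22 alternatives (15 to 21 of 22 each). In Hdac3 +/- cells those of Cst7, Tlr3, Tfeb, Sort1, Vps35 and Tlr9 did, Ctsa and Ifi30 held in 21, Mitf in 19 and Nagpa in 16 of 22, while Ctsh held in 8 of 22, Serpinb6a in 7 of 22, Cst9 in 16 of 21 and Ahsg in 6 of 21. Of the 64 genes 1 (1.6%, beside 1.08% of all genes) was called for the interaction, Tlr3.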

How the data were processed

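RNA was measured on 12 arrays, 3 per group, grouped by the labels. The deposited log2 values were normalized and summarised per probe set by the authors with RMA in affy, per the submitters' processing notes. The version, the settings and the chromosome build were not given in the sources used here. Other settings could change small differences. Of 28193 probe sets 21648 had 1 gene symbol in the platform annotation, 1313 several and 5232 none, and all columns were used. The brightest probe set of a gene was kept (19945 genes).

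A mean per group was fitted to all 12 arrays with limma 3.58.1 (lmFit, eBayes without trend, R 4.3.3) in 5 comparisons, the interaction among them, with Benjamini-Hochberg adjustment over 19945 genes and a threshold of 0.05. The script was tested on simulated data. The SE of Stfa1 comes from a fit over all 28193 probe sets. Tables and figures used Python 3.11.15, pandas 2.3.3, numpy 2.4.6 and matplotlib 3.10.9, and promoters were aligned with Biopython 1.88. Gene order came from a RefSeq gene table of GRCm38.p6.

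The members and lists were chosen with earlier results of these data known. Genes to be named were the members, Hdac3, up to 4 called genes of each pathway list per comparison by size (the 2 of smallest p where a list had no call), the 3 genes most like each member whose group means span 1 log2 unit or more, and the brightest and any called marker of each marker list. Further called genes of a list, Mmp8, S100a8 and Eif2s3y were chosen after their values were seen.

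Pairing by replicate number was checked by correlating the deviations of arrays from their group means. LPS-treated and untreated Hdac3 +/- arrays of a number correlated at 0.243, 0.327 and 0.223, all over 0.1. They were taken as pairs in the replicate block alone, and the fit behind the calls reported has no block. In Hdac3 -/- cells the values were 0.090, 0.195 and -0.122, and between genotypes -0.472 to 0.058, so no pairing was shown there. Replicate 2 of the Hdac3 -/- arrays (0.195) did correlate best with its own number among arrays of that genotype in the other treatment. Whether arrays of a number share a source was not tested. The replicate block was run in Hdac3 -/- cells and between genotypes too. Alternatives were a filter on genes under a mean of 5, quantile and cyclic loess normalization, eBayes with trend and robust, array weights, the mean of the probe sets of a gene, a fit to only the arrays compared, the replicate block, and each array left out. Leaving out the Hdac3 -/- replicate 2 pair or the Hdac3 +/- replicate 1 pair was chosen after seeing the data.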

Additional observations from a re-analysis of the deposited data

Results flagged for a closer look

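Tlr3 was the single gene among the members and pathway lists whose LPS response differed between genotypes by the interaction test. Its response in Hdac3 -/- cells minus that in Hdac3 +/- cells was -2.05 ± 0.199 on the log2 scale (limma, adjusted p = 0.000455). LPS-treated and untreated arrays averaged 6.20 and 5.74 in Hdac3 -/- cells and 8.81 and 6.30 in Hdac3 +/- cells. The call held in all 21 alternatives that gave a value, with differences of -2.18 to -1.87.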

How the results depend on the processing

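Of 981 values of member differences under alternatives, 957 moved by less than 1 SD between replicates, 24 moved by more, and 0 called differences changed sign. Many alternatives change only the spread or leave out an array of another group, and so return the same difference. The count is therefore no test of stability. Of 33 calls of pathway genes 13 held in every alternative run, and 0 of the others changed sign. For Hdac3 -/- against +/- untreated, 531 genes were called, 1186 with array weights, 321 with only the arrays compared and 266 to 606 with 1 array left out. The pathway genes called there numbered 0, and 2 with dim genes left out, 1 with quantile normalization, 1 with cyclic loess, 6 with array weights, 1 without the Hdac3 -/- replicate 2 pair, 1 without the Hdac3 +/- replicate 1 pair and 0 to 3 with 1 array left out. After LPS 3127 genes and 13 pathway genes were called, and 1685 to 3495 and 7 to 13 with 1 array left out. For LPS in Hdac3 -/- cells 1769 genes were called, 4424 with array weights, 1066 without the replicate 2 pair and 1129 to 1941 with 1 array left out. Of the pathway genes 5 were called there, 19 with array weights, 12 with only the arrays compared, 10 with the replicate block, 1 without the Hdac3 -/- replicate 2 pair, 9 without the Hdac3 +/- replicate 1 pair and 1 to 8 with 1 array left out. For LPS in Hdac3 +/- cells 14 pathway genes were called, 8 with only the arrays compared, 18 with the replicate block and 9 to 14 with 1 array left out. The interaction had 216 genes, 592 with array weights and 97 to 349 with 1 array left out. The cause of these shifts was not tested, apart from fewer arrays in the fits that leave some out.

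Single arrays moved the gene counts by over 1.5 times. These were, with the count without each, untreated Hdac3 -/- replicate 1 (266) for genotype untreated, LPS-treated Hdac3 -/- replicates 1 (2023) and 3 (1685) and Hdac3 +/- replicate 3 (1828) for genotype after LPS, untreated (1143) and LPS-treated (1129) Hdac3 -/- replicate 1 for LPS in Hdac3 -/- cells, and for the interaction untreated Hdac3 -/- replicate 1 (97), LPS-treated Hdac3 -/- replicates 1 (121) and 3 (113) and Hdac3 +/- replicates 1 (349) and 3 (126). The fit with the replicate block kept the member calls except that of Ctsk untreated (2.44). It added those of Ctsc (0.49) and Stfa3 (2.42) for LPS in Hdac3 -/- cells, and ended the genotype calls of Sorl1 and Tlr9 after LPS. In Hdac3 -/- cells and between genotypes its blocks join arrays by number alone, so these changes rest on no shown pairing. Among arrays of the same genotype in the other treatment, all 6 Hdac3 +/- arrays correlated best with their own number, while arrays of different numbers correlated at up to 0.514 across genotypes. Signals near the floor were those of Stfa1, Stfa3 in Hdac3 +/- cells, Cst9, the placental cathepsins and the other stefins apart from Cstb. Those of Ctsb, Ctsd, Ctss, Ctsz and Psap lay near the top of the scale. Both limit what a difference can show. The interaction could not be fitted on only the arrays compared. With 3 arrays per group, differences like that of Stfa3 untreated can miss the threshold without the groups being alike.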
